A study of Drosophila melanogaster with 12 samples.

Results

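Of the 14323 genes in the expression table of the adult Drosophila male accessory gland, 36 carry a symbol that begins with Rab or RabX followed by a digit, and these are described here. Of the 36, 33 are Rab small GTPase genes. The remaining 3 code for regulators of Rab3 that share the name: Rab3-GAP and Rab3GAP1, whose relatives form a GTPase-activating complex in mammals, and Rab3-GEF, an exchange factor. All 36 symbols were found in the Ensembl BDGP6.54 annotation of the dm6 assembly, 14 on chromosome X, 7 on 2L and 5 each on 2R, 3L and 3R.

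Poly-A RNA was sequenced from accessory glands of 10 day old virgin males in 4 genotypes, with 3 libraries of 80 to 100 pooled glands each. All 4 genotypes carried hs-flp12, a GFP(nls) reporter, the caspase inhibitor UAS-P35 and the Act>CD2>gal4 flipout cassette, which a 20 min heat shock at 37°C opens in scattered cells so that an actin promoter drives Gal4. Each gland is therefore a mixture of transgene-expressing and other cells. Myc+E2f/Dp males also carried UAS-dMyc, UAS E2F1 and UAS-Dp. Yki*+Dp males carried a Yorkie transgene altered at 3 sites, which is insensitive to Hippo signaling, with UAS-Dp and, by the label, UAS E2F1. Yki-WT males carried unaltered UAS-yki, and control males carried none of these oncogenes. Nothing in the labels says that libraries of 1 genotype came from separate crosses, so the p-values measure the spread between these libraries.

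The transgenes followed the labels except that E2f1 was at control level in Yki*+Dp (log2 fold change -0.23, limma adjusted p = 0.226, with Benjamini-Hochberg adjustment over all tested genes here and below), and yki was also higher in Myc+E2f/Dp (1.94). Values are TPM, a length-corrected share of the transcripts of a library, multiplied by a library factor that sets the median gene equal between libraries ("scaled TPM"). The factors were 0.645 to 0.776 in Myc+E2f/Dp, 0.928 to 0.989 in Yki*+Dp, 1.16 to 1.26 in Yki-WT and 1.13 to 1.36 in control. Over all tested genes, TPM as deposited gave a median log2 fold change against control of 0.74 for Myc+E2f/Dp, 0.30 for Yki*+Dp and 0.05 for Yki-WT, and after scaling these medians were 0.05, -0.00 and 0.01. "Higher" and "lower" below therefore mean relative to the median gene, and members whose direction turns with TPM as deposited are named as such. A log2 fold change is a difference of log2(scaled TPM + 1), which understates the change of genes near or under 1 TPM. TPM keeps no read depth, so no counting error can be attached to a value.

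Rab proteins are molecular switches on the membranes of the secretory and endocytic routes. Exchange factors load them with GTP, the GTP-bound form recruits effectors that move, tether or fuse vesicles, and GTPase-activating proteins switch them off. Escort and dissociation factors handle the prenylated protein between membranes. The accessory gland secretes seminal fluid proteins from a monolayer of abundant main cells and few secondary cells, and in the secondary cells Rab6, Rab7, Rab11 and Rab19 are known to mark large granule-bearing and endolysosomal compartments.

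A few members carried most of the summed Rab level. Of the 36 members, 25 reached 1 TPM in at least 3 libraries and were tested, and 11 did not. Rab1, which acts between the endoplasmic reticulum and the Golgi, had the highest mean of the members in every genotype, followed by Rab11, Rab7 and Rab2 in that order. In control libraries Rab1 had 166, 154 and 149 scaled TPM, Rab11 had 85.1, 82.6 and 82.9, and Rab7 had 77.0, 78.6 and 81.3, with no overlap between these 3 neighbours. Further down, pairs of neighbours in control overlapped: Rab2 spanned 52.2 to 57.1 scaled TPM and Rab4 spanned 51.7 to 55.4, while Rab5 spanned 46.9 to 48.2 and Rab18 spanned 44.7 to 50.4. The 6 most abundant members held 62.9% of the summed level of all 36 in Myc+E2f/Dp, 63.8% in Yki*+Dp, 62.9% in Yki-WT and 61.7% in control. That sum was 684 ± 26.9 scaled TPM in Myc+E2f/Dp, 828 ± 34.1 in Yki*+Dp, 783 ± 36.5 in Yki-WT and 769 ± 5.07 in control (SD, n = 3 each). The order of sums depends on the scaling, since with TPM as deposited the sum was highest in Myc+E2f/Dp, at 972 ± 128 TPM, against 617 ± 53.4 TPM in control (SD, n = 3 each). Within a genotype the libraries lay close together: among tested members at a mean of 1 scaled TPM or more, the median coefficient of variation was 7.17% in Myc+E2f/Dp, 7.51% in Yki*+Dp, 5.95% in Yki-WT and 5.03% in control.

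**Figure D1:**
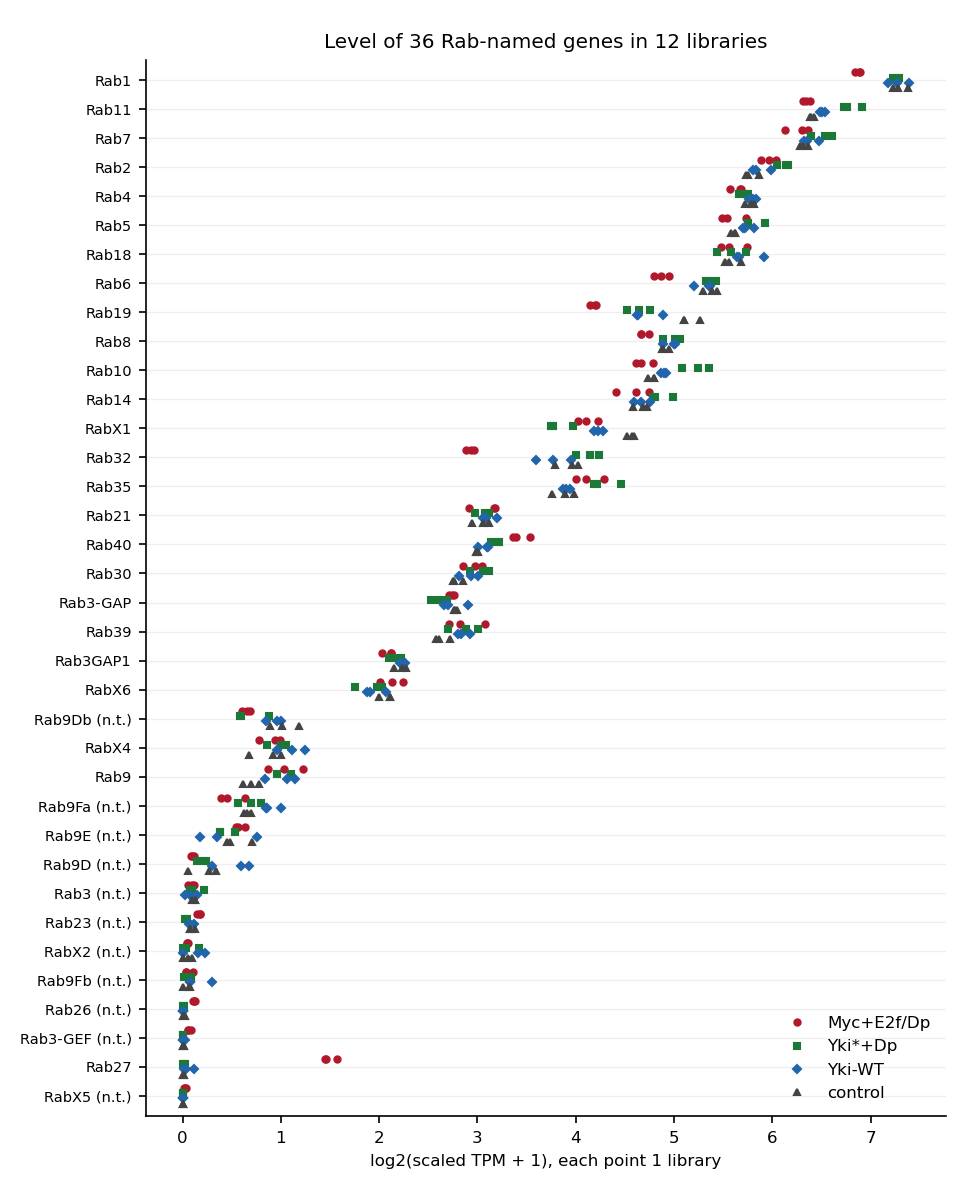
Level of each of the 36 members, as log2(scaled TPM + 1), in the 12 libraries (1 point per library, coloured by genotype; n.t., not tested). Rab1 lies at the top in all 4 genotypes, and Rab27 stands apart near the bottom, with the Myc+E2f/Dp libraries at 1.73 to 1.96 scaled TPM and the other 9 near 0.

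Myc+E2f/Dp was set against control to ask how these genes differed with the Myc, E2f1 and Dp transgenes. Rab27 appeared, at 1.81 scaled TPM against 0.00215 in control, and Rab32 and Rab19 were at 46.4% and 49.5% of their control level. Smaller decreases were seen for Rab6, RabX1, Rab1 and Rab8, and small increases for Rab40, Rab9, Rab35 and Rab2. In all, 5 of the 25 tested members were higher and 6 were lower (limma adjusted p below 0.05 at any fold), against 35.8% and 29% of all 8128 tested genes; together that is 44% of the members, beside 64.9% of all genes. The 3 libraries of either group did not overlap for 14 of the 25 members, beside 71.2% of all genes. At 2-fold or more, 1 member, Rab27, was called, beside 13.1% of all genes. That fold is of scaled TPM + 1, on which Rab32 and Rab19, at 46.4% and 49.5% of control by ratio of means, fell short. With a pseudocount of 0.1 in place of 1 the count was 3, with 1 higher and 2 lower, beside 18.3% of all genes. Without the Myc+E2f/Dp libraries neither Rab27 nor Rab9 would have met the filter, so their calls here are a description. With any 1 Myc+E2f/Dp library left out Rab27 was not tested. The count past 2-fold was then 0 without replicate 3, and 1, Rab32 (lower), without replicate 1 or 2. It was 2 without control replicate 1. The median member had a log2 fold change of -0.04, against 0.05 for all genes. The split depends on the scaling: TPM as deposited put 23 members higher and 0 lower, with 83.5% of all genes called, and scaling by the 75th percentile put 7 higher and 5 lower, with 67.2% called. Of the 6 lower members, Rab1, Rab6, Rab8 and RabX1 turned to higher with TPM as deposited, and Rab19 and Rab32 stayed lower in direction but were not called. Without Myc+E2f/Dp replicate 2 or 3 the number of members called was 7, and leaving out any other library of this comparison gave 9 to 12.

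In Yki*+Dp 9 members passed the test, all by less than 2-fold. Rab10, Rab35, Rab11, Rab2, Rab9, Rab30 and Rab40 were higher than in control, and RabX1 and Rab19 were lower. The 7 higher and 2 lower members, set against 20.7% and 18.2% of all genes, are 36% of the 25 tested, beside 39% of all genes. Libraries did not overlap control for 13 of the 25, beside 52.5% of all genes. At 2-fold or more 0 members were called, beside 6.99% of all genes; 13 of the 25 had an unadjusted p below 0.05. The median member had a log2 fold change of 0.11, against -0.00 for all genes. TPM as deposited put 19 members higher and 1 lower, with 57% of all genes called, and scaling by the 75th percentile put 4 higher and 3 lower, with 40.1% called. Of 4 tested hemocyte markers 2 were higher in Yki*+Dp, 2 in Yki-WT and 1 in Myc+E2f/Dp, where 1 was lower. Hml, NimC1, Pxn, crq and He together had 12.4 to 17.9 scaled TPM in Myc+E2f/Dp glands. The sum was 19.0 to 21.0 in Yki*+Dp and 12.8 to 15.7 in Yki-WT, and all lay above the 8.25 to 10.6 in control. In Myc+E2f/Dp only crq of this list lay above control. Hml, NimC1 and He overlapped control there, and Pxn lay below it, at 0.473 to 0.756 scaled TPM against 1.41 to 1.49. The part of these markers in the members' results was not tested.

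In Yki-WT 2 members passed the test, Rab19 and RabX1, both lower than in control. This is 8% of the 25 tested, beside 10.6% of all genes, of which 7.34% were higher and 3.26% lower. Libraries did not overlap control for 8 of the 25, beside 33.6% of all genes. At 2-fold or more 0 members were called, beside 2.13% of all genes; 3 of the 25 had an unadjusted p below 0.05. The median member had a log2 fold change of 0.06, against 0.01 for all genes. RabX1 was no longer called without Yki-WT replicate 3, control replicate 2 or control replicate 3, which left 1 member, and with TPM as deposited 0 members were called, beside 5.62% of all genes. Markers of the ejaculatory duct and bulb summed to 714 to 1118 scaled TPM in Yki-WT, 124 to 404 in Myc+E2f/Dp and 172 to 513 in Yki*+Dp. In control they summed to 399 to 735, and each range overlapped it. Of the 5 markers, 2 were called higher in Yki-WT, 2 lower in Myc+E2f/Dp and 1 lower in Yki*+Dp. The part of these markers was not tested. All 3 of these comparisons share the same control libraries, so their values are set side by side and are not counted as repeats of each other.

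**Figure D2:**
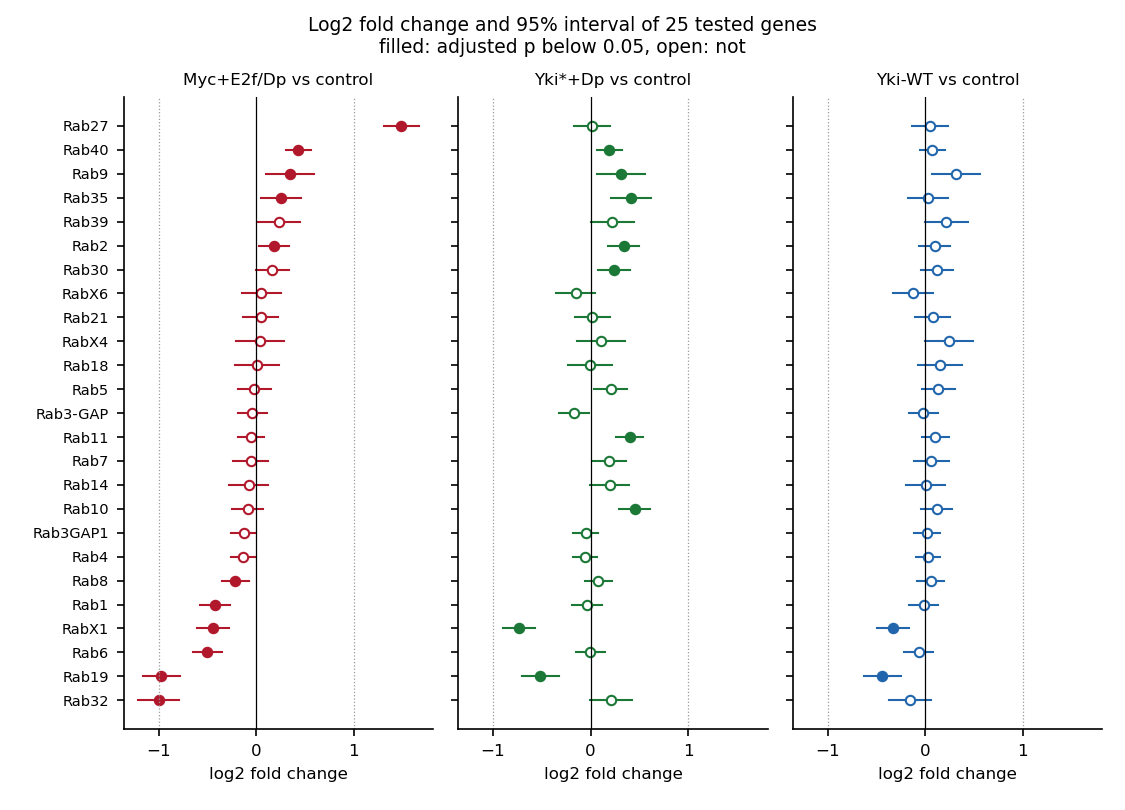
Log2 fold change of the 25 tested members against control (x axis), with the 95% interval from limma, in a panel each for Myc+E2f/Dp, Yki*+Dp, then Yki-WT; filled points have an adjusted p below 0.05, and dotted lines mark 2-fold. Rab19 and RabX1 lie left of 0 in all 3 panels, and Rab27 lies past 1 only in the Myc+E2f/Dp panel, at 1.49.

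Among the members of the early secretory route, the Golgi and the endoplasmic reticulum, 7 were tested. Rab19, a Golgi-associated Rab (FBgn0015793, chromosome 3L, 8297018 to 8298506), had 17.4, 17.4 and 16.7 scaled TPM in Myc+E2f/Dp glands, 24.0, 26.1 and 21.9 in Yki*+Dp and 28.6, 23.9 and 23.6 in Yki-WT, against 33.3, 33.4 and 37.4 in control. Every oncogene library lay below every control library, and the Myc+E2f/Dp libraries also lay below those of Yki*+Dp. The log2 fold change of Rab19 against control was -0.97 (SE 0.0866, limma adjusted p = 3.53e-06) in Myc+E2f/Dp. It was -0.52 (limma adjusted p = 7.43e-04) in Yki*+Dp and -0.44 (limma adjusted p = 0.00853) in Yki-WT. With TPM as deposited, Rab19 remained lower in direction, at -0.19, -0.14 and -0.39, but passed the threshold in none of the 3 comparisons. Rab19 overlaps the end of Arl5 on the opposite strand, which reached at most 8.56 TPM.

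Markers of secondary cells moved with Rab19. All 5 genes of a secondary-cell list (Abd-B, dve, lectin-46Ca, lectin-46Cb and CG17575) were lower in Myc+E2f/Dp, 4 of 5 in Yki*+Dp and 3 of 5 in Yki-WT (limma adjusted p below 0.05 at any fold), and none was at 0 in a whole genotype; with TPM as deposited these counts were 3, 0 and 2. Their summed level was 2944 to 3648 scaled TPM in Myc+E2f/Dp glands, 6524 to 8317 in Yki*+Dp and 7261 to 9240 in Yki-WT, against 10485 to 11632 in control. The part of secondary cells in the result for Rab19 was not tested, and in these bulk samples fewer cells of a type and less RNA per cell cannot be told apart. The 5 main-cell genes of seminal fluid proteins summed to 37394 to 47487 scaled TPM in Myc+E2f/Dp, 48462 to 54486 in Yki*+Dp and 70179 to 79623 in Yki-WT, against 69001 to 89520 in control. Of these 5, Myc+E2f/Dp had 5 lower (2 with TPM as deposited) and Yki*+Dp had 4 lower on either scale.

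Rab6, which serves traffic at the Golgi, had 29.8, 28.2 and 26.8 scaled TPM in Myc+E2f/Dp glands, 39.9, 39.2 and 42.0 in Yki*+Dp and 39.9, 40.2 and 35.7 in Yki-WT, against 42.3, 40.8 and 38.3 in control. On this scale only the Myc+E2f/Dp libraries lay apart from control. Their log2 fold change was -0.50 (SE 0.0679, limma adjusted p = 7.84e-05), which turned to 0.29 with TPM as deposited. With TPM as deposited Rab6 was also called higher in Yki*+Dp (0.37, limma adjusted p = 0.00414). Rab1 behaved alike in Myc+E2f/Dp, with 117, 118 and 114 scaled TPM against 166, 154 and 149 in control. The Myc+E2f/Dp libraries were all below control, with a log2 fold change of -0.42 (SE 0.069, limma adjusted p = 3.00e-04), which turned to 0.39 with TPM as deposited. In Yki*+Dp Rab1 had 155, 153 and 149 scaled TPM and in Yki-WT 167, 153 and 144, both overlapping control. With TPM as deposited Rab1 was called higher in Yki*+Dp (0.35, limma adjusted p = 0.00502).

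Rab2, which acts in Golgi and late endosomal traffic, went the other way, with 58.3, 61.4 and 64.7 scaled TPM in Myc+E2f/Dp and 65.3, 70.5 and 69.7 in Yki*+Dp, against 57.1, 52.8 and 52.2 in control. Both oncogene groups lay above control. The log2 fold change of Rab2 was 0.34 (SE 0.0701, limma adjusted p = 0.00292) in Yki*+Dp and 0.18 (limma adjusted p = 0.0397) in Myc+E2f/Dp, where the call was lost without Myc+E2f/Dp replicate 2 or 3 or control replicate 2 or 3, and with Myc+E2f/Dp and control fitted alone. In Yki-WT Rab2 had 62.4, 54.9 and 56.2 scaled TPM, overlapping control. Among the rest of this class, Rab30, a Golgi Rab, was higher in Yki*+Dp (0.24, limma adjusted p = 0.0269), a call lost without Yki*+Dp replicate 1 or 3 or control replicate 2 or 3. Rab18, a Rab of the endoplasmic reticulum and lipid droplets, had log2 fold changes from -0.01 to 0.15 against control, and Rab39 from 0.22 to 0.23. Neither passed the test in any genotype on scaled TPM. With TPM as deposited both were called higher in Myc+E2f/Dp (0.81 and 0.94) and Yki*+Dp (0.37 and 0.54).

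The 6 members of exocytosis and recycling, Rab4, Rab8, Rab10, Rab11, Rab14 and Rab35, were all tested. In Yki*+Dp 3 of the 6 were higher than in control and 0 were lower, beside 20.7% and 18.2% of all genes, with a median log2 fold change of 0.30. In Myc+E2f/Dp 1 was higher and 1 was lower, beside 35.8% and 29% of all genes, with a median of -0.08, and in Yki-WT 0 were called, beside 10.6%. With 6 members these counts are a description.

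Rab11, the Rab of recycling endosomes and of granule compartments in secondary cells, had 105, 119 and 108 scaled TPM in Yki*+Dp, against 85.1, 82.6 and 82.9 in control. On this scale every Yki*+Dp library lay above every library of the other 3 genotypes. The log2 fold change against control was 0.40 (SE 0.0609, limma adjusted p = 3.94e-04). With TPM as deposited Rab11 had 106, 129 and 113 TPM in Yki*+Dp, overlapping the 104, 111 and 128 TPM in Myc+E2f/Dp. Myc+E2f/Dp had 80.4, 78.6 and 82.6 scaled TPM and Yki-WT had 91.8, 89.6 and 88.3, with log2 fold changes of -0.05 (0.76 with TPM as deposited, limma adjusted p = 0.472 and 1.76e-05) and 0.11 (limma adjusted p = 0.320).

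Rab10, which directs basolateral and basement membrane secretion in epithelia, had 33.0, 39.9 and 36.9 scaled TPM in Yki*+Dp, against 25.7, 26.9 and 26.8 in control. The groups did not overlap, and the log2 fold change was 0.45 (SE 0.0731, limma adjusted p = 6.04e-04). Rab10 had 23.6, 24.4 and 26.7 scaled TPM in Myc+E2f/Dp and 28.9, 28.2 and 29.3 in Yki-WT, and neither passed the test, although with TPM as deposited Rab10 was 0.70 higher in Myc+E2f/Dp. Rab35, a Rab of endocytic recycling and the actin cortex, had 15.01, 16.3 and 18.5 scaled TPM in Myc+E2f/Dp and 17.2, 21.0 and 17.7 in Yki*+Dp, against 12.5, 13.9 and 14.8 in control. Both groups were higher, by 0.26 (limma adjusted p = 0.0312) and 0.41 (SE 0.093, limma adjusted p = 0.00467), although in Myc+E2f/Dp the call was lost without Myc+E2f/Dp replicate 2 or 3 or control replicate 1 or 2. In Yki-WT Rab35 had 13.6, 14.4 and 13.9 scaled TPM, overlapping control.

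Rab4, a Rab of fast recycling and the fifth most abundant member in control, passed the test in no comparison on scaled TPM. It had 46.5, 50.1 and 50.3 scaled TPM in Myc+E2f/Dp glands, 49.6, 53.1 and 52.1 in Yki*+Dp and 56.2, 54.8 and 53.4 in Yki-WT, against 51.7, 54.1 and 55.4 in control. Its 95% intervals against control were -0.26 to -0.01 for Myc+E2f/Dp, -0.18 to 0.07 for Yki*+Dp and -0.10 to 0.15 for Yki-WT. With TPM as deposited Rab4 was called higher than control in Myc+E2f/Dp (0.67, limma adjusted p = 8.57e-05) and Yki*+Dp (0.32, limma adjusted p = 0.0247). It was then also higher in Myc+E2f/Dp than in Yki*+Dp (0.35, limma adjusted p = 0.0124). Rab8, a Rab of post-Golgi exocytosis, was lower in Myc+E2f/Dp by a log2 fold change of -0.21 (limma adjusted p = 0.0106), which turned to 0.58 with TPM as deposited and was not called with 75th percentile scaling. Rab14 had log2 fold changes from -0.08 to 0.19 against control and passed the test in none of these comparisons on scaled TPM. With TPM as deposited Rab14 was called higher in Myc+E2f/Dp (0.71) and Yki*+Dp (0.56).

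Of Rab5, Rab7, Rab9 and Rab21, listed together as endocytic and late endosomal members, only Rab9 was called against control. RabX1, also a Rab of late endosomes but listed apart, was called lower in every oncogene genotype on scaled TPM and is described further below. Rab5, the Rab of early endosomes, had 43.8, 45.4 and 52.4 scaled TPM in Myc+E2f/Dp glands, 53.1, 59.8 and 53.0 in Yki*+Dp and 55.1, 51.0 and 51.7 in Yki-WT, against 46.9, 48.2 and 48.2 in control. Its log2 fold changes were -0.02 (0.78 with TPM as deposited), 0.21 and 0.14, with an adjusted p of 0.0536 (limma, Benjamini-Hochberg) in Yki*+Dp. All libraries of Yki*+Dp and Yki-WT lay above control. Rab7, the Rab of late endosomes and lysosomes, had 68.9, 77.8 and 81.3 scaled TPM in Myc+E2f/Dp glands, 92.1, 96.3 and 82.9 in Yki*+Dp and 87.8, 79.3 and 80.9 in Yki-WT, against 77.0, 78.6 and 81.3 in control. Only the Yki*+Dp libraries lay wholly above control, by 0.19 (limma adjusted p = 0.0809), and Rab7 in Myc+E2f/Dp was at -0.06 scaled, against 0.75 with TPM as deposited. Rab9, a Rab of retrieval from late endosomes to the Golgi, was at about 1 TPM, with 0.829, 1.04 and 1.33 scaled TPM in Myc+E2f/Dp glands, 0.951, 1.14 and 0.945 in Yki*+Dp and 1.081, 0.794 and 1.20 in Yki-WT, against 0.528, 0.719 and 0.620 in control. All 9 oncogene libraries lay above the control libraries. No control library of Rab9 reached 1 TPM, and without the 3 Myc+E2f/Dp libraries, all at 1 TPM or more, Rab9 would not have met the filter, so its tests are a description. The log2 fold changes of Rab9 were 0.34 (limma adjusted p = 0.0181), 0.31 (limma adjusted p = 0.0449) and 0.32 (limma adjusted p = 0.101), and the Yki*+Dp call was lost without any 1 of the 6 libraries compared. The Myc+E2f/Dp call was lost without Myc+E2f/Dp replicate 2 or 3 or control replicate 1. Rab21, an early endosomal Rab, stayed within 6.53 to 8.18 scaled TPM in all 12 libraries.

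Rab32, known in flies as lightoid and needed for pigment granules and other lysosome-related organelles (FBgn0002567, chromosome 2R, 9177864 to 9186342), was lower in Myc+E2f/Dp than in control and in Yki*+Dp. It had 6.78, 6.64 and 6.39 scaled TPM in Myc+E2f/Dp glands, 16.7, 17.9 and 15.1 in Yki*+Dp and 12.6, 14.5 and 11.1 in Yki-WT, against 12.8, 14.6 and 15.3 in control. On this scale the Myc+E2f/Dp libraries lay below all 9 others, and the other groups overlapped control. With TPM as deposited Rab32 was called higher in Yki*+Dp than in control (0.56, limma adjusted p = 0.00362). The log2 fold change of Rab32 in Myc+E2f/Dp against control was -0.999 (SE 0.0967, limma adjusted p = 6.73e-06), just short of 2-fold with the pseudocount of 1. It passed 2-fold with a pseudocount of 0.5 (-1.05) and 0.1 (-1.09). It also did so without control replicate 1 (-1.07), Myc+E2f/Dp replicate 1 (-1.02) or Myc+E2f/Dp replicate 2 (-1.002). Set directly against Yki*+Dp, Rab32 was lower by a log2 fold change of -1.21 (SE 0.0967, limma adjusted p = 1.68e-06). With TPM as deposited these values were -0.26 (limma adjusted p = 0.0809) and -0.82 (limma adjusted p = 1.72e-04). Muscle markers moved with Rab32 in Myc+E2f/Dp: all 6 (Mhc, Mlc2, up, Tm2, Mf and bt) were lower than in control (3 with TPM as deposited), and their sum was 91.2 to 119 scaled TPM in Myc+E2f/Dp glands, 274 to 310 in Yki*+Dp and 264 to 309 in Yki-WT, against 225 to 284 in control. Their part in the result for Rab32 was not tested.

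Rab27, known in mammals for docking secretory granules and for exosome release (FBgn0025382, chromosome X, 1473884 to 1476974), was detected at 1 TPM in Myc+E2f/Dp glands only. It had 1.73, 1.74 and 1.96 scaled TPM in Myc+E2f/Dp glands, 0, 0.0149 and 0.0125 in Yki*+Dp and 0.0217, 0.0119 and 0.0830 in Yki-WT, against 0, 0.00644 and 0 in control. The Myc+E2f/Dp libraries lay far above the 9 others, all of which were under 0.1. Since Rab27 passed the filter only through the group in which it is high, it had to differ there, and its test is no more than a description. The log2 fold change was 1.49 (SE 0.0835, limma adjusted p = 1.17e-07) against control and 1.48 (limma adjusted p = 1.11e-07) against Yki*+Dp. These sizes are set by the pseudocount, and a pseudocount of 0.1 gave 4.23 and 4.13. With any 1 Myc+E2f/Dp library left out, Rab27 no longer met the filter. Rab27 is also expressed in neurons, and a list of 6 neuronal genes (elav, nSyb, Syt1, brp, para and Syn) summed to 9.43 to 9.92 scaled TPM in Myc+E2f/Dp, against 9.01 to 12.8 in control. Of its 4 tested genes, elav was higher in Myc+E2f/Dp (0.29, limma adjusted p = 0.0203) and nSyb was lower (-0.78, limma adjusted p = 3.47e-05). The second tested Rab of neurons and secretory cells, RabX4, did not pass the test in any comparison on scaled TPM, with library values from 0.601 to 1.37. With TPM as deposited RabX4 was called higher in Myc+E2f/Dp than in control (0.42, limma adjusted p = 0.0124). RabX4 overlaps Kaz on the same strand, which reached 17.6 TPM.

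**Figure D3:**
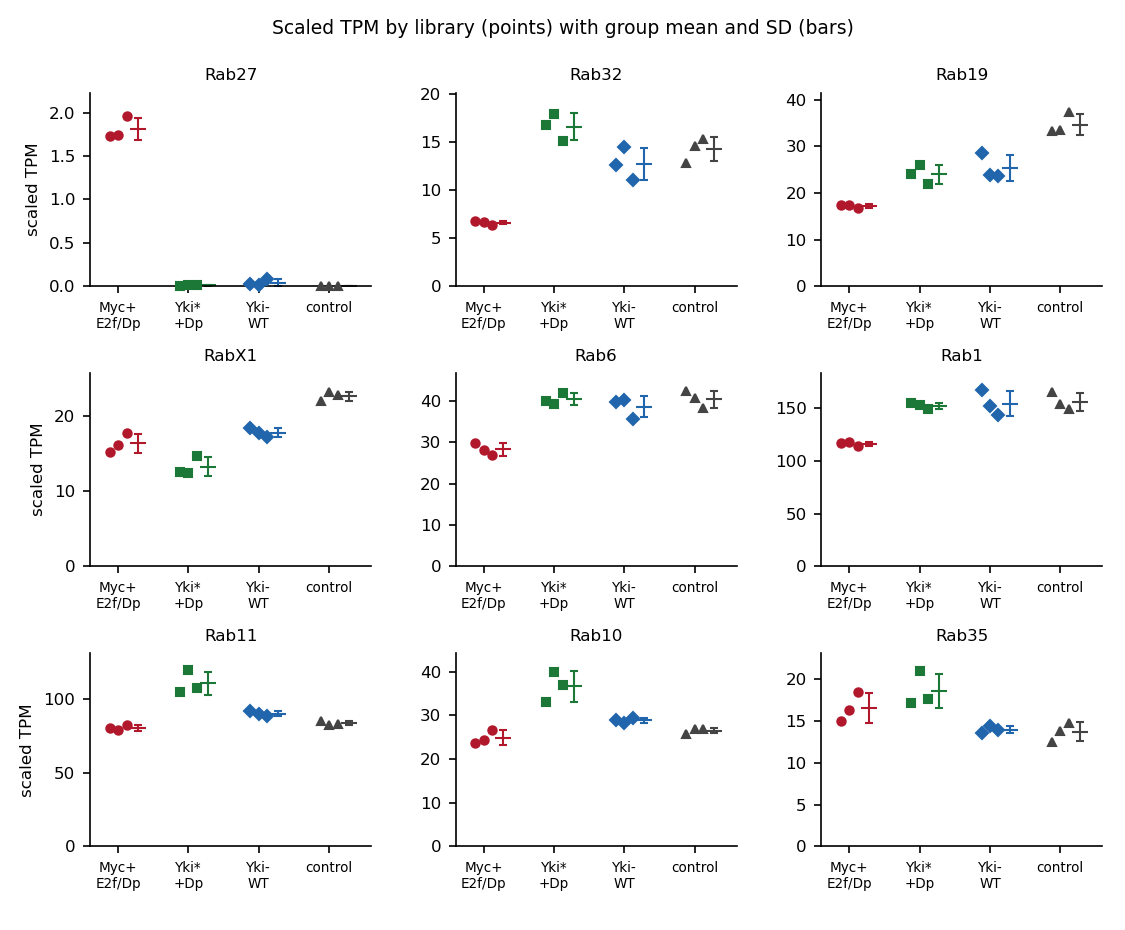
Scaled TPM (y axis, from 0) of 9 members in each library (points) with the mean and SD of the 3 libraries (bars), for Myc+E2f/Dp, Yki*+Dp, Yki-WT and control. Rab27 is seen in Myc+E2f/Dp at 1.73 to 1.96 scaled TPM, Rab32 is lowest there, Rab19 and RabX1 are below control in all 3 oncogene genotypes, and Rab11 and Rab10 are highest in Yki*+Dp.

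RabX1, a Rab of late endosomes in flies (FBgn0015372, chromosome 2R, 23519839 to 23523613), was the other member lower in every oncogene genotype. It had 15.3, 16.2 and 17.8 scaled TPM in Myc+E2f/Dp glands, 12.6, 12.5 and 14.7 in Yki*+Dp and 18.4, 17.8 and 17.2 in Yki-WT, against 22.0, 23.2 and 22.8 in control. None of the 9 oncogene libraries reached a control library, and Yki*+Dp lay lowest. The log2 fold changes of RabX1 were -0.44 (limma adjusted p = 3.27e-04), -0.73 (SE 0.0735, limma adjusted p = 2.27e-05) and -0.33 (limma adjusted p = 0.0162), in that order of genotypes. With TPM as deposited RabX1 was 0.34 higher in Myc+E2f/Dp, and it was -0.37 in Yki*+Dp (limma adjusted p = 0.0235) and -0.28 in Yki-WT.

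Rab40, whose protein carries a SOCS box that links it to a ubiquitin ligase, was higher in Myc+E2f/Dp, with 9.29, 9.48 and 10.6 scaled TPM, and in Yki*+Dp, with 8.31, 7.83 and 8.22, against 7.06, 6.997 and 6.92 in control. Neither oncogene group overlapped control. The log2 fold changes were 0.43 (SE 0.0577, limma adjusted p = 7.32e-05) and 0.19 (limma adjusted p = 0.0226), the second of which was lost without Yki*+Dp replicate 1 or 3 or any control library. In Yki-WT Rab40 had 7.53, 7.64 and 7.05 scaled TPM and was not called. RabX6 and the regulators Rab3-GAP and Rab3GAP1 ranged from 2.37 to 6.502 scaled TPM and passed the test in no comparison on that scale. With TPM as deposited all of them were called higher in Myc+E2f/Dp than in control (0.69, 0.67 and 0.51) and than in Yki*+Dp. Rab3GAP1 was then also called higher in Yki*+Dp than in control (0.24).

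Myc+E2f/Dp was also set directly against Yki*+Dp. Myc+E2f/Dp had lower levels of 10 members, namely Rab32, Rab10, Rab6, Rab19, Rab11, Rab1, Rab8, Rab14, Rab7 and Rab5, and higher levels of Rab27, RabX1 and Rab40. These are 52% of the 25 tested, beside 56.7% of all genes, of which 28.8% were higher and 27.9% lower. The groups did not overlap for 15 of the 25, beside 61.5% of all genes, and the median member had a log2 fold change of -0.08, against -0.02 for all genes. At 2-fold or more Rab27 was higher and Rab32 lower, beside 10.5% of all genes. The Rab27 call is a description, since that gene passed the filter only through Myc+E2f/Dp. Rab10 differed by -0.54 (SE 0.0731, limma adjusted p = 9.56e-05), Rab6 by -0.50 (limma adjusted p = 9.28e-05) and Rab11 by -0.45 (limma adjusted p = 9.04e-05), with no overlap between the groups. TPM as deposited called 12 members higher and 1, Rab32, lower, beside 67.4% of all genes, and scaling by the 75th percentile called 5 higher and 6 lower, beside 59.3%. Rab10, Rab6, Rab19 and Rab11 kept their direction with TPM as deposited, at -0.12, -0.08, -0.04 and -0.02, but were not called, while Rab1, Rab5, Rab7, Rab8 and Rab14 turned to positive values, at 0.04, 0.20, 0.18, 0.13 and 0.15. The calls of Rab5 and Rab14 were lost without Myc+E2f/Dp replicate 1 or 2 or Yki*+Dp replicate 2, and that of Rab7 without Myc+E2f/Dp replicate 1 or Yki*+Dp replicate 1 or 2. Without any 1 Myc+E2f/Dp library Rab27 was not tested and 1 member was past 2-fold.

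**Figure D4:**
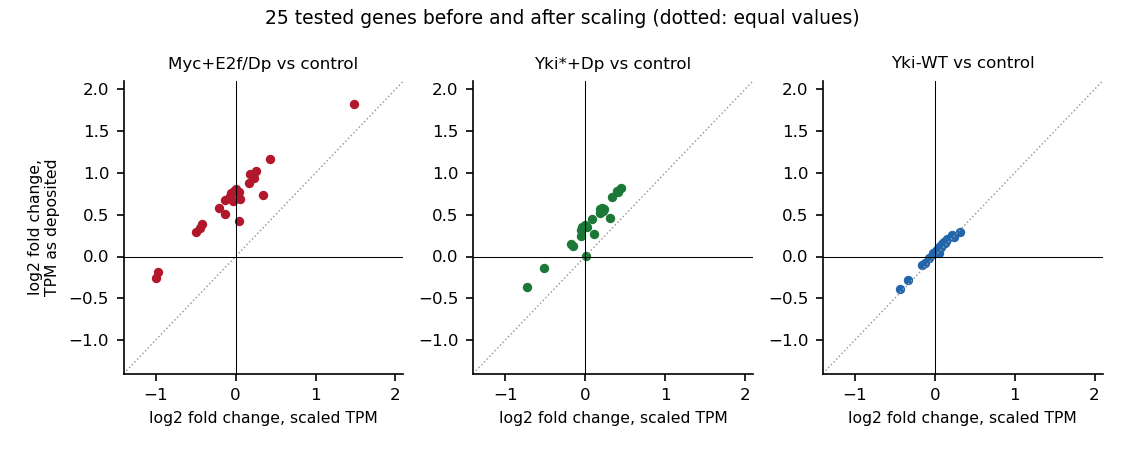
Log2 fold change against control of the 25 tested members from scaled TPM (x axis) and from TPM as deposited (y axis); points on the dotted line are equal. In Myc+E2f/Dp all points lie above the line and 23 members are called higher as deposited. In Yki*+Dp the shift is smaller, and in Yki-WT the points follow the line.

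The 11 members that were not tested stayed at or below 1.28 scaled TPM in every library. They include Rab3, a synaptic vesicle Rab, with at most 0.159 scaled TPM, and 5 Rab9-like genes (Rab9D, Rab9Db, Rab9E, Rab9Fa and Rab9Fb) that lie with RabX2 between 10417429 and 10952486 on chromosome X. These 5 resemble each other in sequence, so the division of reads among them is uncertain. Rab9Db had 0.573, 0.606 and 0.520 scaled TPM in Myc+E2f/Dp and 0.512, 0.498 and 0.845 in Yki*+Dp, against 0.848, 1.02 and 1.28 in control. Both groups lay below control on this scale, but with TPM as deposited both overlapped it. Rab9Fa had 0.802 to 0.997 scaled TPM in Yki-WT, against 0.541 to 0.617 in control, and Rab9Fb had 0.0557 to 0.231 in Yki-WT, against 0 to 0.0530 in control, so both lay above control there.

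A few untested members lay above control in Myc+E2f/Dp at very low levels. More genes in general reached 1 TPM as deposited in the Myc+E2f/Dp libraries, 7615 to 8120 against 6902 to 7257 in control. The share of all untested genes that lay above control was not computed, so these values are no result about Rab genes. Rab26, a Rab of secretory granules and synaptic vesicles in mammals, had 0.0756, 0.0850 and 0.0900 scaled TPM in Myc+E2f/Dp, against 0.00222, 0.00767 and 0.0137 in control. Rab23, a planar polarity gene in flies, had 0.108, 0.132 and 0.132 scaled TPM in Myc+E2f/Dp, against 0.0544, 0.0901 and 0.05002 in control, while its 0.0152 to 0.0303 scaled TPM in Yki*+Dp lay below control. Rab3-GEF reached 0.0385 to 0.0611 scaled TPM in Myc+E2f/Dp, against 0 to 0.0114 in control, and RabX5 was listed at 0 in the other 9 libraries and at 0.00903 to 0.0239 in Myc+E2f/Dp. None of these reached 1 TPM, and the reads behind them are unknown.

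The 36 members have 90 transcripts in the table, and 21 members have more than 1. All Rab27 in the Myc+E2f/Dp libraries was assigned to Rab27-RC, which codes for 690 bases, and none to Rab27-RB, which codes for 708. Rab32 kept its make-up, with 89.6%, 87.7% and 87.8% of its TPM on Rab32-RC in Myc+E2f/Dp, against 90.3%, 88.2% and 87.5% in control. In Rab19, Rab19-RA held 94.9% or more in every library.

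Transcript shares are given for Rab7, Rab4, Rab5 and Rab35. Rab7-RB, a transcript that starts further downstream than Rab7-RA and codes for the same 621 bases, held 9.64%, 11.9% and 8.38% of Rab7 in Yki*+Dp, 3.98%, 4.67% and 6.97% in Myc+E2f/Dp and 4.38%, 2.32% and 5.53% in Yki-WT, against 1.15%, 2.53% and 1.66% in control. The Yki*+Dp and Myc+E2f/Dp shares did not overlap those of control, and the Yki-WT shares did. Rab4-RA held 68.8%, 70.3% and 67.0% of Rab4 in Myc+E2f/Dp, against 58.9%, 60.5% and 53.8% in control. The level of the gene did not pass the test on scaled TPM. Rab5-RF held 35.2%, 34.2% and 31.0% of Rab5 in Myc+E2f/Dp, against 42.7%, 39.3% and 43.9% in control. Rab35-RC, which has 4 exons and codes for 570 bases where Rab35-RB codes for 603, held 20.9%, 15.3% and 18.3% of Rab35 in Yki*+Dp, against 25.4%, 28.4% and 21.0% in control. These 4 transcripts were picked for their shares, so they are a description with no test, and 3 libraries against 3 could not give an exact permutation p below 0.1. The shares are kallisto estimates without their own error. In RabX6 both transcripts had equal shares in every library, so they were not told apart.

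**Figure D5:**
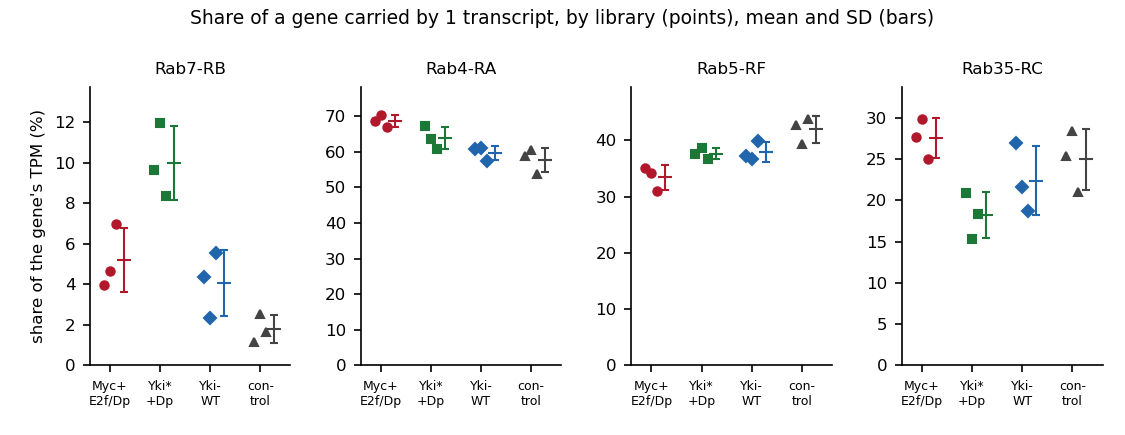
Share of a gene's TPM carried by 1 transcript (y axis, percent, from 0) in each library (points), with mean and SD (bars), for Myc+E2f/Dp, Yki*+Dp, Yki-WT and control. Rab7-RB is highest in Yki*+Dp (8.38% to 11.9%, against 1.15% to 2.53% in control) and Rab4-RA is higher in Myc+E2f/Dp (67.0% to 70.3%) than in control (53.8% to 60.5%).

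Genes that regulate or read out Rab proteins were listed apart from the members, 4 for prenylation and recycling, 25 exchange factors, 15 GTPase-activating proteins (Rab3GAP1 included) and 40 effectors found in the table. In Myc+E2f/Dp 14 effectors of the 38 tested were higher and 8 lower, 6 exchange factors of 24 were higher and 6 lower, and 3 GTPase-activating proteins of 14 were higher and 2 lower, beside 35.8% of all genes higher and 29% lower. In Yki*+Dp these counts were 13 and 8 for effectors, 2 and 2 for exchange factors and 3 and 2 for GTPase-activating proteins, beside 20.7% and 18.2% of all genes. In Yki-WT glands, where 7.34% of all genes were higher and 3.26% lower, 0 of these genes were higher and 2 were lower, the tethering subunit Vps11 (-0.23, limma adjusted p = 0.0248) and plx (-0.43, limma adjusted p = 0.0471); the plx call was lost without any 1 of the 6 libraries compared and that of Vps11 without any of them but control replicate 3. The 4 prenylation and recycling genes had 2 higher and 1 lower in Myc+E2f/Dp, 2 higher and 0 lower in Yki*+Dp and 0 called in Yki-WT. Using TPM as deposited, Myc+E2f/Dp had 36 effectors higher and 1 lower, 21 exchange factors higher and 1 lower, and 13 GTPase-activating proteins higher and 0 lower, with 83.5% of all genes called on that scale. On that scale Yki*+Dp had 22 effectors higher and 1 lower, 16 exchange factors higher and 0 lower, and 10 GTPase-activating proteins higher and 1 lower, with 57% of all genes called. Scaling by the 75th percentile gave 20 effectors higher and 5 lower in Myc+E2f/Dp and 8 higher and 10 lower in Yki*+Dp, with 67.2% and 40.1% of all genes called.

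In Myc+E2f/Dp 4 of these genes were past 2-fold, 3 lower and 1 higher, beside 13.1% of all genes. GM130, a Golgi tether that binds Rab1 in mammals, had 34.4, 29.8 and 22.8 scaled TPM in Myc+E2f/Dp, against 63.4, 61.5 and 51.4 in control (log2 fold change -1.01, limma adjusted p = 1.43e-04). Its partner Grasp65 had a log2 fold change of -1.15 (limma adjusted p = 8.83e-05), with 114, 101 and 72.5 scaled TPM in Myc+E2f/Dp, against 233, 212 and 190 in control. l(3)76BDm, a subunit of the TRAPP complex that activates Rab1, had a log2 fold change of -1.06 (limma adjusted p = 6.99e-06). For all 3 the groups did not overlap, which held for 71.2% of all tested genes, and likewise for btsz, a synaptotagmin-like gene, which was higher in Myc+E2f/Dp (1.22, limma adjusted p = 1.49e-04). With TPM as deposited GM130 was at -0.21 (limma adjusted p = 0.156) and l(3)76BDm at -0.25. On scaled TPM GM130 and Grasp65 also lay below control in Yki*+Dp, at 33.9 to 47.1 and 106 to 144. Both lay below control in Yki-WT too, at 48.2 to 49.8 and 175 to 187, where neither was called. Of all genes, 52.5% did not overlap control in Yki*+Dp and 33.6% in Yki-WT.

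In Yki*+Dp the largest change among these genes was in nuf, nuclear fallout, an effector of Rab11 at the recycling endosome. It had 12.9, 17.1 and 13.9 scaled TPM in Yki*+Dp glands and 4.19, 4.57 and 6.04 in Myc+E2f/Dp glands, against 2.79, 3.86 and 3.36 in control. Each Yki*+Dp library was far above all others, and the log2 fold change was 1.85 (SE 0.161, limma adjusted p = 8.44e-06) against control. The exchange factor gene spri, sprint, which acts on Rab5 in its mammalian relatives, was higher by 1.081 (limma adjusted p = 3.02e-04) and btsz by 1.31 (limma adjusted p = 1.94e-04). The GTPase-activating protein gene plx, pollux, was lower by a log2 fold change of -1.31 (limma adjusted p = 1.40e-05), with 0.743, 0.653 and 1.079 scaled TPM in Yki*+Dp, against 3.08, 4.26 and 3.28 in control.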

How the data were processed

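Poly-A RNA of 12 gland pools was sequenced on a NovaSeq from stranded TruSeq libraries. Per the labels and the study's methods, the authors trimmed reads with cutadapt 1.18, quantified them with kallisto against the Ensembl BDGP6.28 transcripts and tested with sleuth; they deposited TPM per transcript and per gene, whose depth is not given in the sources used here. Because TPM are not counts, no count model was run.

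Each library was multiplied by its median-of-ratios factor over 6633 genes at 1 TPM or more in all 12 libraries. Genes at 1 TPM or more in at least 3 libraries (8128) were fitted with limma 3.58.1 in R 4.3.3 on log2(scaled TPM + 1), with all 4 genotypes in the model, an intensity trend and Benjamini-Hochberg adjustment within each comparison. Calls were an adjusted p below 0.05, at any fold or at a log2 fold change of at least 1. The fit was tried on normally distributed simulated data with no scaling or filter step, so that run cannot test the scaling or the filter. Figures used matplotlib 3.10.9. Transcript shares were each transcript's TPM over its gene's sum. Coordinates came from Ensembl BDGP6.54 (dm6).

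Members with every library value are the 6 most abundant, the 3 largest rises and falls per comparison among called members, those past 2-fold, and those under 1 TPM in control that reached it in another genotype; Rab8, Rab14, Rab18, Rab21, Rab30, Rab39, Vps11, the untested members and the 4 transcripts shown were added after their values were seen. The members and all gene lists were chosen with earlier results of these data known. Library numbers were not used to pair the samples in the main fit. Alternatives covered scaling, pseudocount, filter, the groups fitted, trend, replicate block and each library left out.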

Additional observations from a re-analysis of the deposited data

How the results depend on the processing

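Scaling was the choice that moved most. With TPM as deposited, 23 members were called in Myc+E2f/Dp against control (3 past 2-fold), 20 in Yki*+Dp, 0 in Yki-WT, and 1 past 2-fold in Myc+E2f/Dp against Yki*+Dp. Directions also turned with TPM as deposited. In Myc+E2f/Dp against control the log2 fold changes became 0.39 for Rab1, 0.70 for Rab10, 0.76 for Rab11, 0.67 for Rab4, 0.78 for Rab5, 0.29 for Rab6, 0.75 for Rab7, 0.58 for Rab8, 0.71 for Rab14, 0.67 for Rab3-GAP, 0.51 for Rab3GAP1 and 0.34 for RabX1. In Yki*+Dp they became 0.35 for Rab1, 0.32 for Rab4, 0.37 for Rab6, 0.37 for Rab18, 0.24 for Rab3GAP1, 0.15 for Rab3-GAP, 0.13 for RabX6 and 0.16 for Vps11, and in Yki-WT 0.038 for Rab1 and 0.026 for Rab3-GAP. In Myc+E2f/Dp against Yki*+Dp they became 0.043 for Rab1, 0.27 for Rab2, 0.35 for Rab4, 0.20 for Rab5, 0.18 for Rab7, 0.13 for Rab8, 0.15 for Rab14, 0.32 for Rab30, 0.27 for Rab3GAP1, 0.26 for Rab35, 0.15 for RabX4, 0.073 for Grasp65 and 0.31 for btsz. The cause was not tested. Scaling by the 75th percentile turned values that were not called on either scale. Against control these became 0.028 for Rab10, 0.066 for Rab11, 0.096 for Rab5, 0.060 for Rab7, 0.039 for Rab14 and 0.064 for Rab3-GAP in Myc+E2f/Dp, -0.027 for Rab21 in Yki*+Dp, and -0.0047 for Rab35, -0.0054 for Rab4, -0.030 for Rab14 and -0.0081 for Rab3GAP1 in Yki-WT. Between Myc+E2f/Dp and Yki*+Dp they became 0.0043 for Rab35, 0.0095 for RabX4, 0.063 for btsz, 0.014 for Rab2, 0.092 for Rab4, 0.077 for Rab30 and 0.056 for Rab3GAP1. Without a filter 17 of all 36 members were called in Myc+E2f/Dp, beside 46.1% of all genes. Past 2-fold there, a pseudocount of 0.1 gave 3 members and 0.5 gave 2, and a filter of 5 TPM gave 0, since Rab27 is then not tested; that filter gave 1 in Myc+E2f/Dp against Yki*+Dp. With 1 library left out, calls at any fold ranged from 7 to 12 in Myc+E2f/Dp, 6 to 8 in Yki*+Dp, 1 to 2 in Yki-WT and 9 to 13 in Myc+E2f/Dp against Yki*+Dp, and those past 2-fold from 0 to 2, 0 to 0, 0 to 0 and 1 to 2. Uncalled log2 fold changes also changed sign when 1 library was left out. Against control in Myc+E2f/Dp glands they spanned Rab5 -0.097 to 0.029, Rab7 -0.11 to 0.010, Rab14 -0.15 to 0.012, Rab18 -0.067 to 0.064, RabX4 -0.057 to 0.10 and RabX6 -0.0040 to 0.11. In Yki*+Dp glands they spanned Rab1 -0.067 to 0.0094, Rab6 -0.041 to 0.030, Rab18 -0.079 to 0.065 and Rab21 -0.028 to 0.059. In Yki-WT glands they spanned Rab1 -0.075 to 0.034, Rab35 -0.032 to 0.079, Rab14 -0.041 to 0.044, Rab3-GAP -0.093 to 0.028 and Rab3GAP1 -0.016 to 0.045. Between Myc+E2f/Dp and Yki*+Dp glands they spanned Rab9 -0.059 to 0.12, Rab18 -0.061 to 0.087, Rab21 -0.016 to 0.12, Rab39 -0.094 to 0.089 and btsz -0.26 to 0.080. Rab27 gave no value under the 5 TPM filter or without any 1 Myc+E2f/Dp library.

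Libraries share only a replicate number: correlations of same-numbered libraries' deviations ran from -0.31 to 0.51 (median 0.10, 18 pairs). Those of different-numbered libraries ran from -0.38 to 0.37 (median -0.08, 36 pairs). The labels do not say whether the numbers mark batches. With the replicate block, 10, 9, 2 and 13 members were called at any fold, in the same order of comparisons, and 1, 0, 0 and 2 past 2-fold; Rab2 in Myc+E2f/Dp lost its call and spri in Yki-WT gained one. Of 1943 values of single genes under alternatives, 1717 kept their direction and side of the threshold, 99 lost a call, 38 gained one and 89 changed sign, of which 63 were called in neither fit. TPM without read depth limits what can be said of members under 1 TPM.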
